A study of Homo sapiens with 12 samples.

Results

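The genes described here are 10 tubular injury markers: HAVCR1 (the gene of kidney injury molecule 1, KIM-1), LCN2, CLU, CST3, TIMP1, VCAM1, CD44, SPP1, SOX9 and B2M. They were taken from a fixed list of names, which was chosen with earlier results of these data known. Each was read through 1 probe set (the set of short probes that measures 1 transcript). That probe set was the one with the highest mean over all 12 arrays, avoiding names ending in _x_at, which mark possible cross-hybridisation. All 10 genes were found, and all 10 passed the level filter, among 10626 genes tested. LCN2 passed through its 48 h arrays alone.

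The arrays come from HK-2 cells, a human proximal tubule line made immortal in culture, exposed to a compound labelled Di. The cells were seeded 24 h before treatment, grown in medium with 5 mM glucose and 10 ng/ml EGF, and treated at about 90% confluence. The 4 groups were Di for 12 h, its vehicle control at 12 h, Di for 48 h and its vehicle control at 48 h, each with 3 arrays that the labels call biological replicates. Neither the identity nor the dose of Di, nor whether replicates came from separate passages, is given in the sources used here, so p-values measure the spread between these arrays. HK-2 is 1 line, and every group shares its immortalisation and its medium.

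Injured proximal tubule cells lose part of their mature phenotype and switch on a characteristic set of genes. KIM-1 is a surface receptor of the TIM family that is nearly absent from healthy tubule, appears on injured tubule cells, binds phosphatidylserine on dying cells and is shed into the urine by metalloproteases. LCN2 (NGAL), clusterin, cystatin C, TIMP1 and beta-2 microglobulin are secreted or filtered proteins measured in urine or plasma, VCAM1 and CD44 are adhesion receptors of injured or incompletely repaired tubules, osteopontin (SPP1) is a secreted ligand of integrins and CD44, and SOX9 is a transcription factor of repairing tubule cells.

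Upstream sequence is shown for the 4 members with the largest changes at 48 h, 2 of which rose (LCN2 and CD44) and 2 of which fell (HAVCR1 and VCAM1). Each line is the 250 bases before the RefSeq gene start in build GRCh38.p14, written 5′ to 3′ on the strand of the gene. The windows are chr5:157059117-157059366 on the minus strand for HAVCR1, and chr1:100719492-100719741, chr9:128149203-128149452 and chr11:35138921-35139170 on the plus strand for VCAM1, LCN2 and CD44. Capitals mark matches, on either strand, to 1 of 5 motifs.
HAVCR1: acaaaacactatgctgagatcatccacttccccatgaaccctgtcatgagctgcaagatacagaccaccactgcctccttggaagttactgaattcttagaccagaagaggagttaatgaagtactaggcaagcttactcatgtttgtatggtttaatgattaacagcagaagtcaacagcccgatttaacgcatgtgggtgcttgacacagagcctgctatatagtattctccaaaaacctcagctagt
VCAM1: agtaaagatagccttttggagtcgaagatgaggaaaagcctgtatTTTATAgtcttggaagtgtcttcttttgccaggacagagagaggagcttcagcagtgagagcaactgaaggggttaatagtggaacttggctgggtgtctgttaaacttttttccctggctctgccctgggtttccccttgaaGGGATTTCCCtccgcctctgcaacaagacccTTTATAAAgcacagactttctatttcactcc
LCN2: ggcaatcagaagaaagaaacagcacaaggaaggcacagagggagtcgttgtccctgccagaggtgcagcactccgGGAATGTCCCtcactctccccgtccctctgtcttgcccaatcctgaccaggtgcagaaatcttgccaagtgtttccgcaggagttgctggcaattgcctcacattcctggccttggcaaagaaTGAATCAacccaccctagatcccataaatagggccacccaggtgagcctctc
CD44: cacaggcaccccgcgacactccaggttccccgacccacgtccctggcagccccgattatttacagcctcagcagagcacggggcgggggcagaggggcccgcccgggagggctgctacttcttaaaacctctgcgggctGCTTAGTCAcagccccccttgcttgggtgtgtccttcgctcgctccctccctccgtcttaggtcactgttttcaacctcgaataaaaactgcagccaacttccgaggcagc

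The motifs were AP-1 (TGANTCA), the antioxidant response element bound by NRF2 (TGACNNNGC), a STAT site (TTCNNNGAA), the TATA box (TATAAA) and the NF-kB consensus. The last was added after the sequences had been seen. Of 35116 RefSeq windows of the same length, 6.57% held the AP-1 motif, 10.9% the antioxidant element, 6.57% the STAT site, 10.7% the TATA box and 5.21% the NF-kB consensus. The LCN2 window held an AP-1 match (TGAATCA, bases 52 to 46 before the start) and an NF-kB match on the minus strand (GGAATGTCCC as written, bases 175 to 166). In VCAM1 an NF-kB match (GGGATTTCCC, bases 62 to 53, on both strands) lay upstream of a TATA box (bases 29 to 24), which overlaps a match on the other strand, and a further TATA match lay at bases 205 to 200. The CD44 window held an antioxidant element on the minus strand (GCTTAGTCA as written, bases 111 to 103). None of the motifs was in the HAVCR1 window. B2M, which passed the test in no comparison, held an NF-kB match too (GGAAAGTCCC as written, minus strand, bases 125 to 116). These are matches of letters in 1 window a gene and not measured binding. The table held windows for 8 of the 10 members, and those of CLU and SOX9 were not searched.

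Array medians lay between 2.97 and 3.06 (log2), 20617 to 21115 probe sets an array exceeded a log2 value of 4, and arrays of 1 group correlated at 0.995 to 0.998 (Pearson, over all probe sets, which are not independent). The 3′ to 5′ gap of the actin control probe sets, which widens with RNA decay or incomplete labelling, was 0.95 to 1.40 (log2) in Di at 12 h and 1.55 to 1.90 in control at 12 h. The actin gap thus differed without overlap at 12 h, and its part in the 12 h results was not tested. The same gap of the GAPDH control probe sets overlapped at 12 h, at -0.012 to 0.166 in Di and 0.031 to 0.190 in control. The 12 h Di array 2 stood apart most from the mean of its group (root mean square 0.252 over the genes tested, against 0.111 to 0.182 for the other arrays). At 48 h the actin gaps overlapped, at 1.35 to 1.49 in Di and 1.19 to 1.43 in control.

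The listed epithelial markers all passed the level filter, and most listed proximal tubule markers did not. All 6 epithelial markers (EPCAM, CDH1, KRT7, CLDN1, CLDN4 and DSP) were measured, against 2 of 14 proximal tubule markers (DPP4 and PAX8). Of the other proximal tubule markers, AQP1, LRP2, CUBN, SLC34A1, SLC5A2, SLC22A6, SLC22A8, GGT1, ANPEP and MME did not pass the level filter, and the rest were not analysed here. No endothelial marker (of 5) and no leukocyte marker (of 4 on the array, of 6 listed) passed the filter. AQP2 and AQP3 passed among 7 markers of other nephron segments with such a probe set, and COL1A1, DCN, LUM and ACTA2 passed among 8 fibroblast markers.

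**Figure D1:**
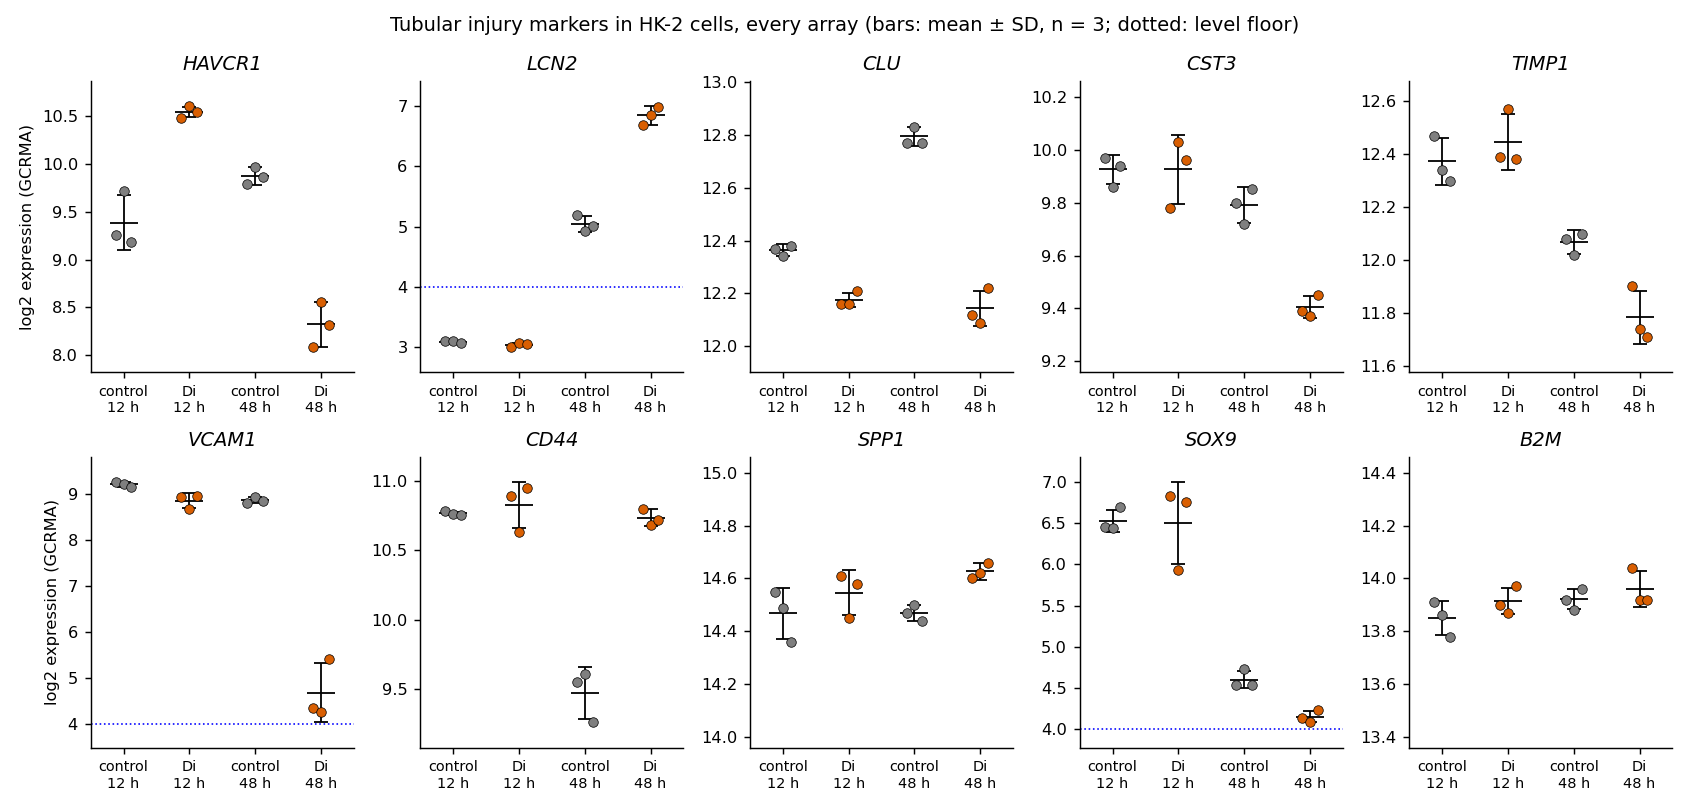
Log2 expression (vertical axes, a scale for each gene) of the 10 injury markers in every array of the 4 groups, with horizontal bars at the mean and error bars of 1 SD (n = 3); grey points are control, orange points Di, and the dotted line is the level floor of 4. HAVCR1 is highest in Di at 12 h (10.48 to 10.60) and lowest in Di at 48 h (8.09 to 8.56), VCAM1 is far lower in Di at 48 h (4.25 to 5.42) than in any other group, and LCN2 lies under the floor in all 12 h arrays.

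KIM-1 mRNA was higher after 12 h of Di and lower after 48 h. HAVCR1 read 9.26, 9.72 and 9.18 (log2) in the control arrays at 12 h and 10.48, 10.60 and 10.54 in the Di arrays, so the lowest Di array lay above the highest control. After 48 h the values were 9.79, 9.97 and 9.86 in control and 8.09, 8.56 and 8.32 in Di, and the groups again lay apart, now with Di below. The 12 h means were 9.39 ± 0.289 (SD, n = 3) in control and 10.54 ± 0.0559 in Di, a log2 change of 1.15 ± 0.145 (SE, 2.23-fold, limma adjusted p = 0.00132). The 48 h means were 9.87 ± 0.09 and 8.33 ± 0.234, a log2 change of -1.55 ± 0.145 (2.92-fold lower, limma adjusted p = 4.81e-06).

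The turn itself was tested. The 48 h change of HAVCR1 differed from the 12 h change by a log2 value of -2.70 ± 0.205 (limma adjusted p = 2.89e-06). Among genes whose means in both compared groups lay above the floor, its 12 h change ranked 21 of 10288 by size and its 48 h change 420 of 10113. The order of the group means was Di at 48 h, control at 12 h, control at 48 h and Di at 12 h, and no 2 neighbours in that order overlapped. Control arrays rose from 12 h to 48 h by 0.49 ± 0.145 (1.40-fold, limma adjusted p = 0.015), a call that ended when the 12 h control array 1 (0.42, adjusted p = 0.0572) or 3 (0.38, adjusted p = 0.0649) or the 48 h control array 2 (0.44, adjusted p = 0.0531) was left out. Without replicate 2 of Di at 12 h, the array with the smallest actin gap (0.95), the 12 h change stood at 1.13 (limma adjusted p = 0.00345). The gaps of the remaining 12 h Di arrays, 1.32 and 1.40, still lay below those of every 12 h control. This run thus does not separate Di from the gap, whose part was not tested. In bulk RNA, fewer expressing cells and less mRNA per cell cannot be told apart, here or for the genes below.

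The 5 tested genes most like HAVCR1 in level over the 12 arrays, by Pearson correlation, were CBX5 (r = 0.968), EFNA5 (0.959), RUVBL1 (0.952), FAM76A (0.943) and CARMIL1 (0.942). CBX5 encodes a heterochromatin protein, EFNA5 a cell surface ephrin, RUVBL1 an ATPase of chromatin remodelling complexes and CARMIL1 a regulator of actin capping. These values are descriptions over 12 arrays that share 4 groups. CBX5 stood at log2 changes of 0.80 at 12 h and -0.83 at 48 h, EFNA5 at 0.78 and -0.87, and CARMIL1 at 0.35 and -0.97. RUVBL1 stood at 0.21 and -0.32 and FAM76A at 0.36 and -0.56, and a high correlation does not require a large change.

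At 12 h HAVCR1 was the only one of the 10 markers to pass the test. The background at 12 h was 13.7% of tested genes called, 3.9% higher and 9.78% lower, and the members' count is read against that share. The calls over all genes were 28.5% higher, and 54.3% higher with each array centred on the median of the genes tested, while HAVCR1 stayed the 1 marker called. The Di and control arrays at 12 h did not overlap for 3 markers (HAVCR1 higher, CLU and VCAM1 lower), beside 34.8% of all genes. The median log2 change of the 10 at 12 h was 0.030, and that of all genes was -0.061.

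At 48 h 7 of the 10 markers passed, 2 of them higher (LCN2 and CD44) and 5 lower (VCAM1, HAVCR1, CLU, CST3 and TIMP1). Over all genes 50.9% were called, 22.9% higher and 28% lower. The groups did not overlap for 9 markers, 3 higher and 6 lower, beside 61.6% of all genes. The median change of the 10 was -0.33 and that of all genes -0.019. The same 7 genes passed the test of the difference between the 48 h and 12 h changes, 2 higher and 5 lower (6 without LCN2, whose 12 h values lay under the floor), beside 38.3% of all genes called (19.8% higher, 18.5% lower).

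**Figure D2:**
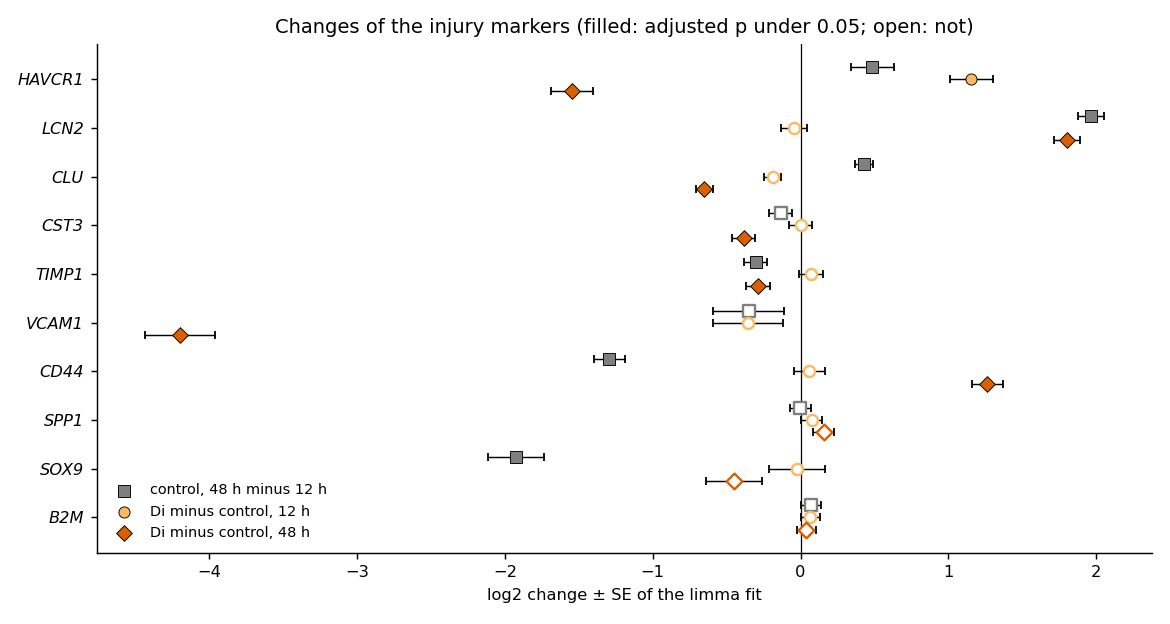
Log2 change (horizontal axis) with the SE of the fit for each of the 10 markers in 3 comparisons: control at 48 h minus control at 12 h (grey squares), Di minus control at 12 h (pale circles) and at 48 h (dark diamonds); filled symbols passed an adjusted p of 0.05. The 48 h changes run from -4.20 (VCAM1) to 1.80 (LCN2), and HAVCR1 is the 1 marker with a filled circle at 12 h.

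Among the adhesion receptors, VCAM1 fell and CD44 rose at 48 h. VCAM1, which binds the leukocyte integrin alpha4 beta1 and is induced on tubule cells by inflammatory cytokines, read 9.27, 9.22 and 9.17 in control and 8.94, 8.68 and 8.97 in Di at 12 h. After 48 h VCAM1 read 8.81, 8.94 and 8.86 in control and 4.35, 4.25 and 5.42 in Di. Every Di array at 48 h was near the floor of 4 and far under every other array. The means at 48 h were 8.87 ± 0.0671 (SD) and 4.67 ± 0.646, a log2 change of -4.20 ± 0.24 (SE, 18.3-fold lower, limma adjusted p = 9.47e-08).

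This fall of VCAM1 ranked 9 of 10113 by size among genes measured on both sides, counted in either direction. Replicate 3 of Di at 48 h, at 5.42, stood above the other two and widened the spread. Without it the log2 change was -4.57 (limma adjusted p = 5.49e-10). At 12 h the change was -0.36 ± 0.24 (limma adjusted p = 0.35) although the arrays did not overlap. That adjusted p was 0.028 without replicate 3 of Di at 48 h, which does not enter the 12 h means and bears only on the shared spread. VCAM1 in control arrays also lay lower at 48 h than at 12 h without overlap (-0.35, limma adjusted p = 0.245, and 0.00697 without that same array).

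CD44, the hyaluronan receptor, read 10.78, 10.76 and 10.75 in control and 10.89, 10.63 and 10.95 in Di at 12 h. At 48 h control arrays read 9.55, 9.61 and 9.26 and Di arrays 10.80, 10.68 and 10.72. The Di arrays at 48 h thus lay inside the range of Di at 12 h, while the control arrays at 48 h lay below all others. Control fell between the times by 1.29 on the log2 scale (SE 0.104, 2.45-fold, limma adjusted p = 1.79e-06), and Di exceeded control at 48 h by 1.26 ± 0.104 (2.40-fold, limma adjusted p = 1.82e-06). At 12 h the difference was 0.060 ± 0.104 (limma adjusted p = 0.742).

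CD44 is spliced into many isoforms and has 13 probe sets assigned to it alone, of which 7 passed the level filter. In a fit of all kept probe sets, all 7 were called higher in Di at 48 h, by log2 changes of 1.26 (212063_at, the one used) to 2.03 (210916_s_at). All 7 were called lower in control at 48 h than in control at 12 h, from -1.58 (204489_s_at) to -0.85 (1557905_s_at). At 12 h 210916_s_at alone was called, at 0.43 ± 0.116 (limma adjusted p = 0.0374), and 204489_s_at stood at -0.13 (adjusted p = 0.501). The probe set used here gave the smallest of the 7 changes at 48 h. Which isoforms each probe set reads was not analysed here.

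**Figure D3:**
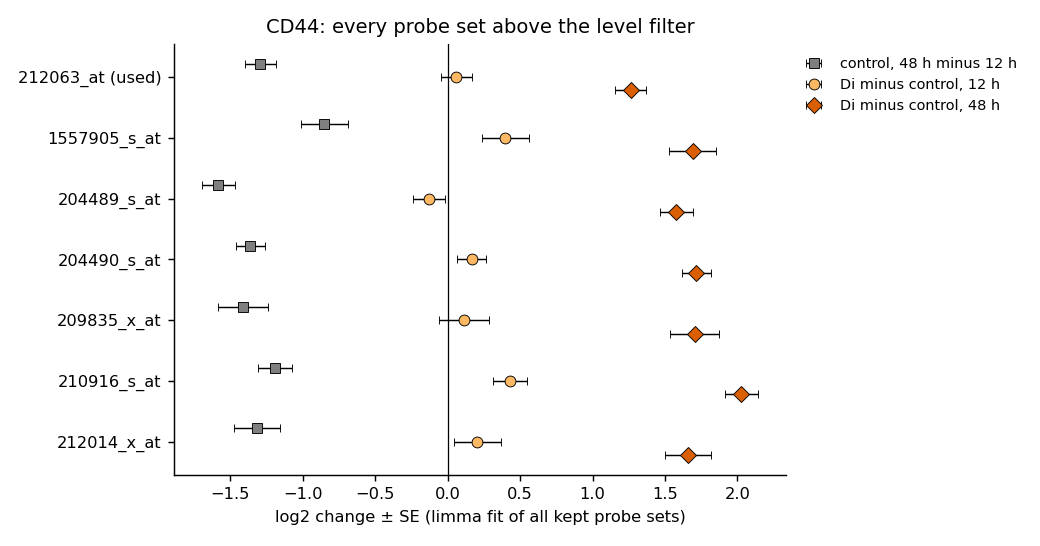
Log2 change with the SE of the fit (horizontal axis) for each of the 7 CD44 probe sets above the level filter (vertical axis, by probe set name), in the 2 Di comparisons and in control over time. All 7 lie right of 1.2 for Di at 48 h, all lie left of -0.8 for control over time, and those for Di at 12 h lie between -0.13 and 0.43.

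The secreted markers moved in different directions. LCN2, an iron-carrier-binding lipocalin released by injured distal and proximal tubule, was not above the floor of 4 in any 12 h array (3.09, 3.09 and 3.06 in control, 3.00, 3.06 and 3.05 in Di). At 48 h it read 5.20, 4.93 and 5.01 in control and 6.69, 6.86 and 6.99 in Di. Both 48 h groups lay above the floor, and all Di arrays lay above all control arrays. The rise with Di at 48 h was 1.80 ± 0.0889 (3.49-fold, limma adjusted p = 2.99e-08), from means of 5.05 ± 0.135 and 6.85 ± 0.153 (SD). That SE and p draw on the spread shared by the 4 groups. The 12 h arrays under the floor entered it with smaller SDs, 0.0193 in control and 0.0288 in Di.

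The 48 h control mean of LCN2 lay 2.06-fold above the floor, and so at least that far above its control level at 12 h. In Di-treated arrays the 48 h mean lay 7.20-fold above the floor, and so at least that far above the Di level at 12 h. Because LCN2 passed the level filter through its 48 h arrays alone, no test of these steps is given. No fold is given at 12 h, since both groups lay under the floor. The fitted difference between its changes, 1.84, therefore uses 12 h values under the floor and is no measured size.

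Clusterin, an extracellular chaperone of damaged proteins, read 12.37, 12.34 and 12.38 in control and 12.16, 12.16 and 12.21 in Di at 12 h. At 48 h CLU read 12.77, 12.83 and 12.77 in control and 12.12, 12.09 and 12.22 in Di. Control arrays were higher at 48 h than at 12 h, and Di arrays of both times lay together below them. The log2 change at 48 h was -0.65 ± 0.0595 (1.57-fold lower, limma adjusted p = 4.04e-06). At 12 h it was -0.19 ± 0.0595 (1.14-fold), with a limma adjusted p of 0.0585. That p was 0.0139 with no level filter, 0.0484 with a floor of 6 and 0.0162 with trend and robust moderation. It was 0.133 with the 12 h arrays alone, 0.116 with median centring, 0.106 with the replicate block and 0.341 with centring on the genes tested, where the change was -0.10.

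Control CLU rose between the times by 0.43 ± 0.0595 (limma adjusted p = 0.000108). In the fit of all kept probe sets, the others of CLU gave -0.66 (208792_s_at) and -0.61 (222043_at) for Di at 48 h, both called lower. For control over time, 208792_s_at gave 0.40 and 222043_at gave -0.072 (limma adjusted p = 0.677), so the rise of control with time was not seen by the last.

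Cystatin C, a secreted inhibitor of cysteine cathepsins and a plasma marker of filtration, read 9.97, 9.86 and 9.94 in control and 9.78, 10.03 and 9.96 in Di at 12 h. At 48 h CST3 read 9.80, 9.72 and 9.85 in control and 9.39, 9.37 and 9.45 in Di. The groups overlapped at 12 h (log2 change 0.00013 ± 0.0768, limma adjusted p = 0.999) and lay apart at 48 h. The fall at 48 h was small, -0.38 ± 0.0768 (1.31-fold, limma adjusted p = 0.00146). Control at 48 h stood -0.14 ± 0.0768 from control at 12 h (limma adjusted p = 0.163).

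TIMP1, an inhibitor of matrix metalloproteases, read 12.47, 12.34 and 12.30 in control and 12.39, 12.57 and 12.38 in Di at 12 h. At 48 h it read 12.08, 12.02 and 12.10 in control and 11.90, 11.74 and 11.71 in Di. Both 48 h groups lay under both 12 h groups, with Di lowest. The change with Di at 48 h was -0.29 ± 0.0807 (1.22-fold lower, limma adjusted p = 0.0117), and that of control over time -0.30 ± 0.0807 (limma adjusted p = 0.00813). With arrays centred on the median of the genes tested, neither was called (-0.24, adjusted p = 0.0752, and -0.22, adjusted p = 0.103).

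The test of the difference between the TIMP1 changes (-0.36 ± 0.114, limma adjusted p = 0.0286) also rested on single arrays. The call ended when any 1 of 6 arrays was left out, namely the 48 h Di arrays 2 and 3, the 12 h control arrays 2 and 3 and the 48 h control arrays 1 and 3. In those runs the value lay between -0.35 and -0.32 and the adjusted p between 0.0592 and 0.067. With centring on the genes tested the value was -0.40 (adjusted p = 0.052).

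Osteopontin and beta-2 microglobulin passed the test in no comparison. SPP1 read 14.55, 14.49 and 14.36 in control and 14.61, 14.45 and 14.58 in Di at 12 h. After 48 h SPP1 read 14.47, 14.50 and 14.44 in control and 14.60, 14.62 and 14.66 in Di. The 48 h groups did not overlap, but the difference of 0.16 ± 0.0703 (1.12-fold) had a limma adjusted p of 0.0831. It was 0.0232 with trend and robust moderation and 0.0237 with centring on the genes tested (log2 change 0.20). The other kept probe set of SPP1, 1568574_x_at, stood at -0.40 at 12 h and 0.35 at 48 h and was called at neither (limma adjusted p = 0.239 and 0.203), with a difference between the changes of 0.75 (adjusted p = 0.075).

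B2M, the light chain of MHC class I molecules, read 13.91, 13.86 and 13.78 in control and 13.90, 13.87 and 13.97 in Di at 12 h. After 48 h B2M read 13.92, 13.88 and 13.96 in control and 14.04, 13.92 and 13.92 in Di, and the groups overlapped at both times. Its changes were 0.065 ± 0.0651 at 12 h (limma adjusted p = 0.545) and 0.040 ± 0.0651 at 48 h (limma adjusted p = 0.646). Its other kept probe set gave -0.13 and -0.0045, and was called at neither time.

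SOX9, the 1 transcription factor of the set, fell with time in culture and passed the test in neither Di comparison. It read 6.45, 6.44 and 6.69 in control and 6.83, 5.93 and 6.75 in Di at 12 h, and the groups overlapped. At 48 h it read 4.54, 4.73 and 4.54 in control and 4.14, 4.09 and 4.23 in Di, all under every 12 h array. Control fell by 1.92 on the log2 scale between the times (SE 0.192, 3.80-fold, limma adjusted p = 9.37e-06). The change with Di was -0.024 ± 0.192 at 12 h (limma adjusted p = 0.954) and -0.45 ± 0.192 at 48 h (limma adjusted p = 0.072), although the 48 h arrays did not overlap.

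Replicate 2 of Di at 12 h, at 5.93, stood apart from the other two for SOX9 (SD 0.495 against 0.0715 to 0.137 in the other groups) and raised the shared spread. Without it the adjusted p was 0.00115 at 48 h for the same log2 change of -0.45, and the difference between the changes was -0.71 (limma adjusted p = 0.00148) in place of -0.43 ± 0.271 (0.245). In a fit limited to the 48 h arrays, the adjusted p was 0.00341. The other probe set, 202935_s_at, gave -0.44 at 48 h (adjusted p = 0.245) and -2.13 for control over time (adjusted p = 0.000125). Its Di mean at 48 h, 3.85, lay under the floor.

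In control cells 6 of the 10 markers changed between 12 h and 48 h, 3 higher (LCN2, HAVCR1 and CLU) and 3 lower (SOX9, CD44 and TIMP1), or 5 without LCN2, beside 52.9% of all genes called (21.9% higher, 31% lower). Of these calls over all genes 41.3% were higher, and 51.5% with centring on the genes tested. The control groups did not overlap for 8 markers, beside 65.1% of all genes. For CD44 (-1.29 over time, 1.26 with Di at 48 h) and CLU (0.43 and -0.65) the change over time in control and the Di difference at 48 h had opposite signs, and the Di arrays of 48 h overlapped those of 12 h. For SOX9, LCN2 and TIMP1 the Di arrays at 48 h lay beyond the 48 h controls in the direction that control took with time.

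**Figure D4:**
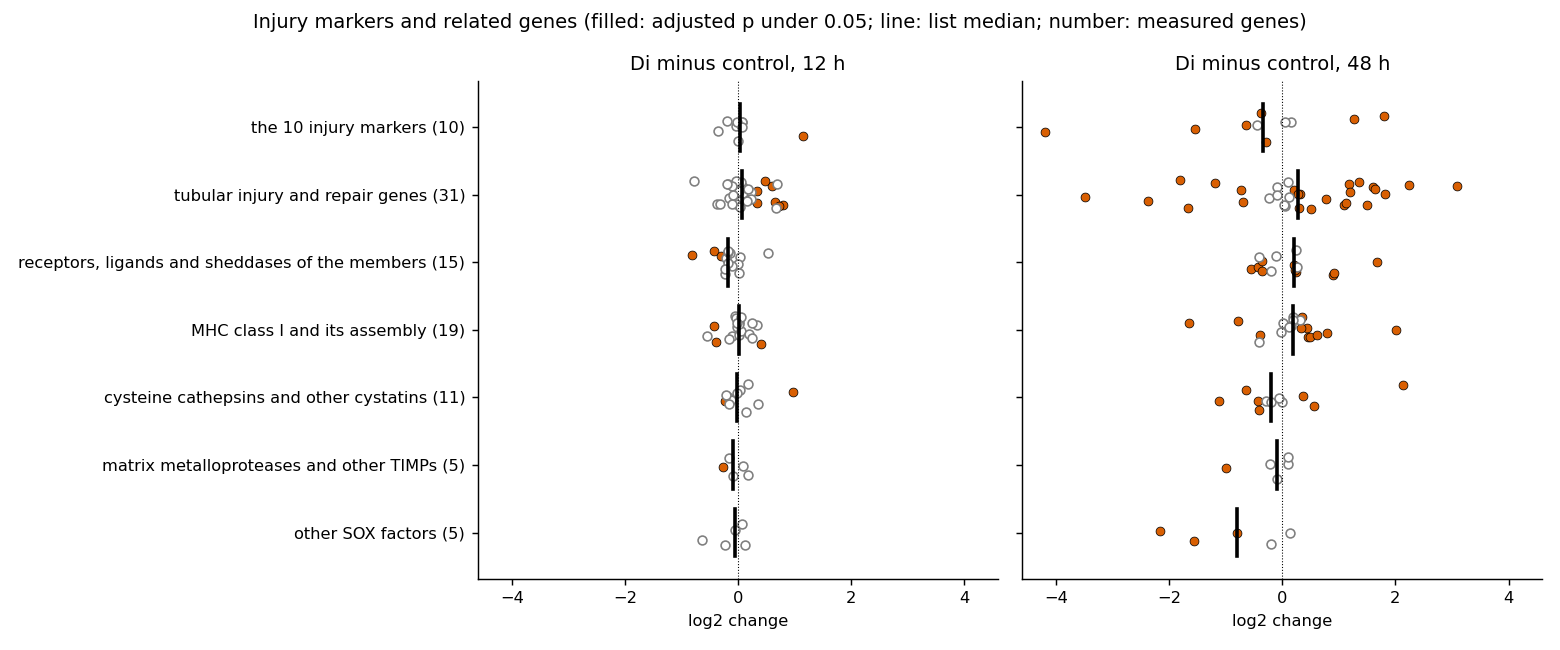
Log2 change of Di against control (horizontal axes, 12 h left and 48 h right) for every measured gene of the injury markers and of 6 lists of related genes (rows, with the number measured); filled points passed an adjusted p of 0.05 and black lines are list medians. Most points at 12 h are open, and the points at 48 h run from -4.20 (VCAM1) to 3.08 (ATF3).

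Other genes of tubular injury and repair, a list of 35 of which 31 were measured, had 7 higher and 0 lower at 12 h and 17 higher and 7 lower at 48 h. Their median change was 0.072 at 12 h and 0.27 at 48 h, beside -0.061 and -0.019 over all genes. The counts of this list and of those that follow stand beside shares over all genes of 3.9% higher and 9.78% lower at 12 h, and 22.9% higher and 28% lower at 48 h. HBEGF, an EGF receptor ligand that drives tubule repair, stood at 6.76 ± 0.123 (SD) in control and 7.41 ± 0.192 in Di at 12 h (0.65 ± 0.125, 1.57-fold, limma adjusted p = 0.00862). At 48 h it stood at 5.66 ± 0.188 and 7.02 ± 0.141 (1.36 ± 0.125, 2.57-fold, limma adjusted p = 4.25e-06). TNFRSF12A, the TWEAK receptor, rose 1.74-fold at 12 h (8.25 ± 0.132 to 9.05 ± 0.112, limma adjusted p = 0.000712), and the cytokine IL6 1.66-fold (4.65 ± 0.113 to 5.38 ± 0.298, limma adjusted p = 0.00655).

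The largest fitted changes of that list at 48 h were in CDH6, ATF3 and CCL2, the last with a Di level under the floor. CDH6, a cadherin of the developing proximal tubule, fell 11.2-fold (10.79 ± 0.299 to 7.30 ± 0.078, limma adjusted p = 1.58e-08). ATF3, a stress transcription factor, stood 8.49-fold higher in Di than in control (9.48 ± 0.0839 in control, 12.57 ± 0.0415 in Di, limma adjusted p = 3.47e-06). In control alone ATF3 rose from a mean of 4.30 at 12 h, near the floor, to 9.48 at 48 h (5.18, limma adjusted p = 7.62e-08). CCL2, a monocyte chemokine, fell at least 4.28-fold, since its Di mean of 3.72 lay under the floor (control 6.10 ± 0.117, limma adjusted p = 3.52e-06). GDF15, a stress cytokine, stood 4.71-fold higher in Di with both means above the floor (2.24, limma adjusted p = 1.48e-09). Control GDF15 also rose between 12 h and 48 h, by 2.31 (4.97-fold, limma adjusted p = 2.45e-09).

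Partners of the members, meaning their receptors, ligands and sheddases, had 0 of 15 measured genes higher and 3 lower at 12 h and 6 higher and 4 lower at 48 h (median -0.17 and 0.21). ADAM17, a sheddase of membrane proteins, stood at -0.22 at 12 h (limma adjusted p = 0.109) and rose 1.86-fold at 48 h (9.27 ± 0.0716 to 10.16 ± 0.0654, limma adjusted p = 5.94e-06). ADAM10, a related sheddase, stood at -0.15 and -0.11 (limma adjusted p = 0.22 and 0.272). LRP8, a receptor of clusterin, stood 3.19-fold higher in Di at 48 h (control 4.99 ± 0.41, Di 6.66 ± 0.229, limma adjusted p = 2.68e-05). The osteopontin-binding integrin subunit ITGB5 stood 1.88-fold higher (limma adjusted p = 9.47e-07). Both fell in control between 12 h and 48 h (log2 changes of -2.25 and -1.06, limma adjusted p = 3.03e-06 and 3.33e-07). The Di means of LRP8 and ITGB5 at 48 h, 6.66 and 9.87, lay below their control means at 12 h, 7.24 and 10.02.

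At 12 h the fallen partners included 2 integrin subunits. ITGA4, the subunit that binds VCAM1, fell 1.75-fold (5.60 ± 0.204 to 4.79 ± 0.348, limma adjusted p = 0.0231). The call ended when the 12 h Di array 2 or either of the 12 h control arrays 1 and 2 was left out (-0.77 to -0.61, adjusted p = 0.0564 to 0.0866). ITGA5, a fibronectin and osteopontin receptor subunit, stood at -0.43 ± 0.121 (limma adjusted p = 0.0417). Its call ended in 9 of the 12 runs without 1 array (adjusted p = 0.0507 to 0.139), all but those that left out the 12 h Di array 2, the 48 h Di array 1 or the 12 h control array 1. With the replicate number as a block its adjusted p was 0.0698.

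The partners of B2M in MHC class I assembly had 1 of 19 measured genes higher and 2 lower at 12 h and 8 higher and 3 lower at 48 h (median 0.0082 and 0.19). TAP2, a subunit of the peptide transporter, rose 4.05-fold at 48 h (6.48 ± 0.0717 to 8.50 ± 0.126, limma adjusted p = 6.55e-08), and the immunoproteasome subunit PSMB9 1.74-fold (limma adjusted p = 4.27e-05). HFE, an MHC-like regulator of iron uptake, fell at least 3.09-fold (5.63 ± 0.0738 to a mean under the floor, limma adjusted p = 3e-05).

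At 12 h the MHC-like protein gene MR1 rose by 0.41 ± 0.0901 (limma adjusted p = 0.0147), but stood at 0.0046 (adjusted p = 0.981) with the mean of its kept probe sets. The peptide-trimming ERAP1 fell by 0.43 on the log2 scale (SE 0.111, limma adjusted p = 0.0286), with -0.21 (adjusted p = 0.197) as the mean of its probe sets. Its call also ended when the 12 h Di array 2 or any 1 of the 12 h control arrays was left out (-0.45 to -0.33, adjusted p = 0.0538 to 0.0939), and with the replicate block (0.0507).

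The targets of cystatin C moved both ways. Of 11 measured cathepsins and other cystatins, 1 was higher and 1 lower at 12 h, and 3 were higher and 4 lower at 48 h (median -0.024 and -0.20). CTSL rose 4.40-fold at 48 h (8.73 ± 0.0931 to 10.87 ± 0.0319, limma adjusted p = 1.36e-09), while CTSF fell 2.18-fold (limma adjusted p = 0.000261) and CTSC 1.56-fold (limma adjusted p = 1.67e-05). CTSZ rose 1.95-fold at 12 h (6.50 ± 0.387 to 7.46 ± 0.0497, limma adjusted p = 0.00832). CTSB fell by 0.22 on the log2 scale at 12 h (SE 0.0605, limma adjusted p = 0.0336). The CTSB call ended when the 12 h Di array 1 or 3, the 48 h Di array 2 or any 1 of the 12 h control arrays was left out (-0.24 to -0.20, adjusted p = 0.05 to 0.104), with the replicate block (0.0702) and with centring on the genes tested (-0.14, adjusted p = 0.259). At 48 h CTSB rose by 0.55 (1.47-fold, limma adjusted p = 1.63e-05), and the difference between its changes was 0.78 (limma adjusted p = 4.13e-05).

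The targets and relatives of TIMP1 were mostly not measured, with 5 of 15 matrix metalloproteases and other TIMPs above the level filter. At 12 h 0 were higher and 1 lower, and at 48 h 0 were higher and 1 lower (median -0.097 and -0.098). MMP7, a metalloprotease raised in injured tubules, fell 1.99-fold at 48 h (7.76 ± 0.06 to 6.77 ± 0.0935, limma adjusted p = 2.93e-06). TIMP2 fell by 0.26 on the log2 scale at 12 h (SE 0.071, limma adjusted p = 0.0336) and stood at 0.094 at 48 h (adjusted p = 0.301, and 0.37 with an adjusted p of 0.000773 as the mean of its probe sets). Its 12 h call ended when the 12 h Di array 1 or 2, the 12 h control array 2 or 3 or the 48 h control array 1 was left out (-0.27 to -0.21, adjusted p = 0.0526 to 0.11). It also ended with the replicate block (0.0585) and with centring on the genes tested (-0.18, adjusted p = 0.148).

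Of 13 other SOX factors 5 were measured, with 0 higher and 0 lower at 12 h (median -0.054) and 0 higher and 3 lower at 48 h (median -0.81). SOX4, which is active in progenitor and repairing epithelia, fell 4.47-fold (11.31 ± 0.153 to 9.14 ± 0.208, limma adjusted p = 3.3e-07). SOX12 was 1.75-fold lower (limma adjusted p = 0.000439). SOX6 was 2.96-fold lower in Di than in control (7.39 ± 0.261 in control, 5.83 ± 0.443 in Di, limma adjusted p = 0.000608). Control SOX6 rose from a mean of 5.52 at 12 h (1.88, limma adjusted p = 0.000167), and its Di mean rose from 4.89 at 12 h. Unlike SOX9, SOX4 in control stood at 11.41 at 12 h and 11.31 at 48 h.

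Among markers of other cell types, 3 of 4 measured fibroblast markers and 1 of 2 measured markers of other nephron segments were called lower in Di at 48 h. The summed linear signal of the 8 fibroblast markers was 2880 to 3362 in control and 2661 to 3167 in Di at 12 h, 1427 to 1516 in control at 48 h and 729 to 916 in Di at 48 h. DCN, LUM and ACTA2 were called lower in Di at 48 h (-1.01, -0.72 and -0.42). COL1A1 stood at -0.16 (limma adjusted p = 0.509), while PDGFRA, PDGFRB, COL1A2 and COL3A1 did not pass the level filter. AQP3, a water channel of the collecting duct, fell to a mean of 2.90, under the floor (limma adjusted p = 0.000737), and AQP2 stood at -0.0046. The part of these genes in the changes of the injury markers was not tested. The summed epithelial markers lay at 26243 to 28678 at 12 h, 27724 to 30699 in control at 48 h and 26087 to 27733 in Di at 48 h. Single epithelial markers changed in both directions at 48 h. The cadherin CDH1 (-1.33, limma adjusted p = 0.00146) and EPCAM (-0.65, 0.00623) were lower in Di than in control. Control CDH1 rose between 12 h and 48 h by 0.99 (limma adjusted p = 0.0085). The claudin CLDN4 (1.46, limma adjusted p = 5.83e-07) and the desmosomal DSP (0.88, 9.58e-05) were higher in Di, and KRT7 and CLDN1 were not called. Their part in the results was not tested either.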

How the data were processed

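HK-2 cells were profiled on 12 Affymetrix arrays. Per the submitters' processing notes, the authors made the deposited log2 values with GCRMA, which corrects background, normalises and summarises each probe set (version not given in the sources used here). The range of the values was checked and fits log2. No further normalisation was applied to the main values. Of 54675 probe sets, 62 controls were left out, and 41097 had 1 gene symbol, 1801 several and 11777 none. A probe set was kept above a log2 value of 4 in at least 3 arrays (21715 kept), which left 10626 genes with 1 probe set each.

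Using limma 3.58.1 (R 4.3.3), 1 fit of the 4 group means took in every array, and its two-sided moderated tests (lmFit, eBayes) were run with Benjamini-Hochberg adjustment over all 10626 genes and a threshold of 0.05. Errors beside changes are SEs of the fit, while means carry SDs (n = 3). Where a group mean lay under 4, the fold is a bound against 4. The fit was tested on simulated data. Arrays give no counting depth, so their number limits the precision.

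The members and the lists were chosen with earlier results of these data known. Named from each list were the 3 called genes with the largest change at 48 h and the 2 at 12 h, plus HBEGF, ADAM10, ADAM17 and TIMP2 whatever their values; GDF15 and the cell type markers given with values were named after their values were seen. Upstream sequences are RefSeq's, build GRCh38.p14. Figures were drawn with matplotlib 3.10.9. Alternatives were no filter, a floor of 6, trend and robust moderation, 3 other scalings, the mean of all probe sets, only the arrays compared, the replicate number as a block, each other probe set, and each array left out.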

Additional observations from a re-analysis of the deposited data

Results flagged for a closer look

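The change with Di at 48 h differed from that at 12 h, by the test of the difference itself (limma, 3 arrays a group), for 7 of the 10 markers, LCN2 among them. Over all genes 38.3% were called in this test, 19.8% higher and 18.5% lower. HAVCR1 differed by -2.70 (log2), from a rise to a fall. VCAM1 differed by -3.84, CLU by -0.46, CST3 by -0.38 and TIMP1 by -0.36, each lower at 48 h. The TIMP1 call ended when any 1 of 6 arrays was left out. LCN2 differed by 1.84, but its 12 h values lay under the level floor, so that this is no measured size. CD44 differed by 1.20.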

How the results depend on the processing

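HAVCR1 kept its direction and its call at 12 h, at 48 h and in the difference between them in every alternative run. It was read by 1 probe set alone, 207052_at, so the alternatives of other probe sets or their mean could not test it. Runs with another filter or moderation left its change as it was and altered only its SE and adjusted p. Its changes without 1 array lay between 1.05 and 1.32 at 12 h, -1.66 and -1.43 at 48 h, and -2.87 and -2.58 for the difference. For control over time they lay between 0.38 and 0.65, with 3 calls lost. At 12 h the markers called numbered 2 in place of 1 with no filter, a floor of 6, or trend and robust moderation, the added gene being CLU, and 1 to 2 without 1 array, the added gene being VCAM1 without replicate 3 of Di at 48 h. The genes called at 12 h numbered 1453, 575 with only the arrays compared and 745 to 1457 without 1 array (745 when the 12 h control array 2 was left out, 778 for array 3). The CLU change of control over time was -0.072 with probe set 222043_at in place of 0.43. The cause of these shifts was not tested. With the replicate block 1003 genes were called at 12 h and 5076 at 48 h, and 1 marker at 12 h and 7 at 48 h. Deviations of same-numbered Di and control arrays of 1 time correlated at -0.26 to 0.15 over the genes tested. These values do not settle whether the numbers pair the arrays. For HAVCR1, replicate 2 read highest in every group, and the block took the SE of its 12 h change from 0.145 to 0.104. Centring on the genes tested was added after the data had been seen. With 3 arrays a group, values under the floor of 4 have no order.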
